A study of Mus musculus with 2 samples.

Results

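The genes for translation factors and aminoacyl-tRNA synthetases were taken as a set of 103 protein-coding genes among the 21951 of the GENCODE M21 mouse annotation. They were selected by gene symbol alone, as the genes named Eif1 to Eif6, Eef1 or Eef2 with any ending, and the genes named by a single amino acid letter followed by ars or ars2, together with Eprs. Roles were also read from the symbol, not from a record of function. By this grouping the set holds 47 initiation factor genes, 8 genes for regulators of initiation, 7 elongation factor genes, 6 genes for regulators of elongation, 18 cytosolic synthetase genes and 17 mitochondrial synthetase genes. Sites bound by TET2 were mapped by ChIP-seq in adipocytes grown from adipose-derived stem cells (ASCs) of mouse inguinal white fat, which were differentiated with IBMX, dexamethasone and insulin and then insulin alone. There was 1 TET2 library and 1 input library, which is sheared chromatin sequenced without immunoprecipitation, and neither knockout nor treated cells were part of the comparison. No value therefore has a replicate error, and each interval given for a share is an exact (Clopper-Pearson) 95% binomial interval that covers counting error only.

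Translation begins when initiation factors bring the initiator tRNA, the mRNA and the ribosomal subunits together, and elongation factors then deliver charged tRNAs and move the ribosome along the mRNA. Aminoacyl-tRNA synthetases attach each amino acid to its tRNA, with separate nuclear genes for most of the enzymes used in mitochondria. TET2 oxidizes methylated cytosines of CpG dinucleotides, has no DNA-binding domain of its own and is brought to DNA by other proteins.

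The deposited list holds 14103 peaks, which are intervals with more TET2 fragments than the input background, each with the −log10 p of the authors' peak caller. Lengths were 375 to 3392 bp, and the −log10 p had a median of 6.21 and a range of 3.07 to 335.2. The peak caller's p setting is stated as 1e-05, which is a −log10 p of 5, and 2182 of the listed peaks (15.5%) had a smaller value. The sequencing yield is stated only as a data volume, so the reads behind each library are not known here. All 14103 intervals lay within the chromosomes of GRCm38 and 0 midpoints fell in an assembly gap. Among 6 adipocyte genes, Lep had a promoter peak with a −log10 p of 11.23, and Adipoq, Fabp4, Plin1, Pparg and Cebpa had no peak. Peaks record binding and not expression, so the cell type itself could not be checked.

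A promoter peak was defined as a peak with its midpoint within 1 kb of any annotated transcription start site (TSS) of the gene, and a gene body peak as one elsewhere inside the gene. TET2 promoter peaks were found at 36 of the 103 genes, or 35.0% (25.8 to 45.0%), where the share over all protein-coding genes was 24.6%. The genes with promoter peaks included 6 of the 14 eIF3 subunit genes and 16 synthetase genes. Another 8 genes had gene body peaks only, which gave 44 genes with any peak (42.7%, 33.0 to 52.8%), against 35.4% of all protein-coding genes. The remaining 59 genes had none. These genes had a median of 5 annotated TSSs, against 3 over all protein-coding genes, so that more positions could count as a promoter. With the 5′ end of the gene record as the only start, 30 genes (29.1%, 20.6 to 38.9%) had a promoter peak, against 20.1% of all protein-coding genes. For promoter peaks by either definition the background fell just below the interval, and for any peak it lay inside. It also lay inside when only peaks with a −log10 p of at least 5 were kept (30 genes, 29.1%, 20.6 to 38.9%, against 22.1%) or only TSSs of protein-coding transcripts were used (32 genes, 31.1%, 22.3 to 40.9%, against 23.1%). No test was possible with 1 library.

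Sequence is shown for the 6 genes with the largest −log10 p among promoter peaks at the gene start, and for Eef2, an elongation factor gene without a peak. The first 4 are the 120 bp around the peak midpoint, and the last 3 are the 160 bp just upstream of the gene start. All are read 5′ to 3′ on the strand of the gene from GRCm38, with each CpG, the dinucleotide on which TET2 acts, in capitals.
Yars2, chr16:16303287-16303406, plus strand: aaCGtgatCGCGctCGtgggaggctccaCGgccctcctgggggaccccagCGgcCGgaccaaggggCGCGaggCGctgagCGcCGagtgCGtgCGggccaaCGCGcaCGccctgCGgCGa
Eif3f, chr7:108934537-108934656, plus strand: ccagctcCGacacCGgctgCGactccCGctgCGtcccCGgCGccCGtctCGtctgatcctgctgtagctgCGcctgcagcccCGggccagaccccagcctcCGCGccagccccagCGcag
Mars2, chr1:55237404-55237523, plus strand: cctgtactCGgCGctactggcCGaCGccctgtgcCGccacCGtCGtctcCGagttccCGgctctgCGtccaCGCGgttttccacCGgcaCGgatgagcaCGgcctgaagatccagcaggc
Rars2, chr4:34614658-34614777, plus strand: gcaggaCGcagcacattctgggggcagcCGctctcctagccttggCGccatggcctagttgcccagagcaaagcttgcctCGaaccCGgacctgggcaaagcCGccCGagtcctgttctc
Eprs, chr1:185362884-185363043, plus strand: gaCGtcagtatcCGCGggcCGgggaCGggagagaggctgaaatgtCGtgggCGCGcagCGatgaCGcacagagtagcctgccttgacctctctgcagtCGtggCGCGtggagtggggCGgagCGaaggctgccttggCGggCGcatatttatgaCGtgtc
Dars, chr1:128417369-128417528, minus strand: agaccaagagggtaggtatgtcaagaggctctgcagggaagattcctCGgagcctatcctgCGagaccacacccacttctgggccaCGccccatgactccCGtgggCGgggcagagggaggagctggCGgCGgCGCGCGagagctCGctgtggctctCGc
Eef2, chr10:81176471-81176630, plus strand: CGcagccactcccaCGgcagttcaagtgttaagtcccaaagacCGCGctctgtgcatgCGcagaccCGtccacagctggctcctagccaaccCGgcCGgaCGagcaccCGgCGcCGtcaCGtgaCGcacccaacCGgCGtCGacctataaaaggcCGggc
The stretch at the Yars2 midpoint held 19 CpGs in 120 bp, that of Mars2 15 and that of Eif3f 14. The Rars2 midpoint, which lies upstream of its gene and inside the neighbouring gene Orc3, held 7. The upstream stretch of Eprs held 18 CpGs in 160 bp and that of Dars 12. Eef2, without a peak, held 18 over the same length, as many as Eprs.

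The roles differed in how many genes had a promoter peak, but their intervals overlapped widely (plot of the share by role). Promoter peaks were present at 9 of 18 cytosolic synthetase genes (50%, 26 to 74.0%), 7 of 17 mitochondrial synthetase genes (41.2%, 18.4 to 67.1%) and 3 of 6 elongation regulators (50%, 11.8 to 88.2%). The share was 14 of 47 for initiation factors (29.8%, 17.3 to 44.9%), 2 of 7 for elongation factors (28.6%, 3.67 to 71.0%) and 1 of 8 for initiation regulators (12.5%, 0.316 to 52.7%). Including gene body peaks, 11 of 18 cytosolic (61.1%, 35.7 to 82.7%) and 11 of 17 mitochondrial synthetase genes (64.7%, 38.3 to 85.8%) had a peak. The 35.4% of all protein-coding genes lay below both intervals, for the cytosolic enzymes by a small margin. Both intervals included the 49.7% of protein-coding genes with a promoter CpG ratio (observed over expected CpGs) of at least 0.6. The synthetase genes were also longer, with medians of 25.3 and 30.1 kb, against 17.4 kb. Of the mitochondrial ones, Lars2 and Wars2 counted only through peaks with 11 and 532 matches elsewhere in the genome. For promoter peaks the background of 24.6% lay outside the interval only for the cytosolic synthetases, again by a small margin. Of these, Aars, Iars and Vars counted only through a TSS over 1 kb from the 5′ end of the gene record. The cytosolic synthetase genes had a median of 7 annotated TSSs, against 3 over all protein-coding genes. With the 5′ end as the only start, 6 of 18 had a promoter peak (33.3%, lower limit 13.3%). The 20.1% of all protein-coding genes lay inside that interval.

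**Figure D1:**
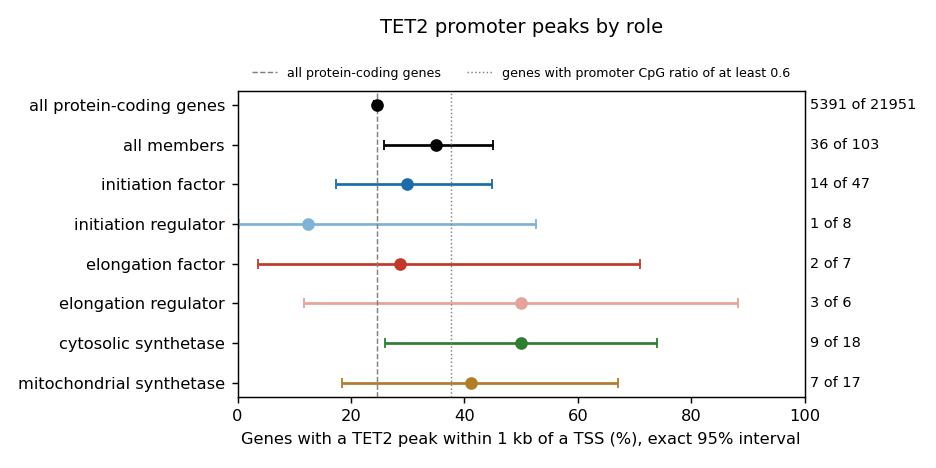
Share of genes in each role with a TET2 peak midpoint within 1 kb of a TSS (points, percent of genes) with exact 95% binomial intervals (bars). The dashed line marks the 24.6% of all protein-coding genes and the dotted line the 37.6% of genes with a promoter CpG ratio of at least 0.6, and the intervals of all 6 roles include the dotted line.

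Of the 14 initiation factor genes with a promoter peak, 6 encode subunits of eIF3, the complex that holds the small ribosomal subunit ready for mRNA. These were 6 of the 14 eIF3 genes in the set (42.9%, 17.7 to 71.1%), an interval that includes the 24.6% of all protein-coding genes. Eif3b, Eif3c, Eif3d, Eif3f, Eif3g and Eif3l had promoter peaks, and the other 8 eIF3 genes had none. The peak at Eif3f was the largest of the initiation factors, with a −log10 p of 12.70 at chr7:108934379-108934815, in a coding exon. It was followed within the complex by Eif3c at 9.50 (chr7:126565881-126566439) and Eif3d at 6.21. Eif3l, Eif3g and Eif3b had 6.04, 4.63 and 4.6. The promoter peaks of this complex thus ran from 4.6 to 12.70, where those of the whole set ran from 3.92 to 15.14.

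eIF2, which carries the initiator tRNA, had a peak at 0 of 4 genes (upper limit 60.2%), Eif2s1 among them. Of the 5 subunits of eIF2B, the exchange factor that recharges eIF2 with GTP, Eif2b5, which encodes the catalytic subunit, had a promoter peak (6.21, 20% of the genes, 0.505 to 71.6%). Both intervals include the 24.6% of all protein-coding genes. Of the kinases that phosphorylate eIF2, Eif2ak3 (PERK, the kinase of the endoplasmic reticulum) had a promoter peak of 6.98 with its midpoint 33 bp downstream of a TSS and a second peak of 6.06 in the gene body. Eif2ak4 (GCN2, the sensor of uncharged tRNA) had only a gene body peak, of 6.98, in a coding exon 42528 bp from the gene start. The other 2 kinases, Eif2ak1 and Eif2ak2, had none.

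Of the 12 genes grouped as eIF4 by symbol, 2 had promoter peaks (16.7%, 2.09 to 48.4%), and the 24.6% of all protein-coding genes lay inside that interval. The group includes the genes for the proteins that bind the cap and unwind the 5′ end of the mRNA. Eif4e, the cap-binding protein, Eif4a1, its helicase partner, and Eif4g1, their scaffold, had no peak, although Eif4g1 has 23 annotated TSSs. Eif4ebp1, the repressor of Eif4e, had none either. The promoter peaks belonged to the other scaffold genes. Eif4g2, which encodes a scaffold that does not bind Eif4e, had 2. The larger one (10.74, chr7:111072086-111072707) lay 10634 bp inside the gene and 755 bp from an internal TSS, in an untranslated exon with a CpG ratio (observed over expected CpGs) of 0.25. The smaller one (6.32) lay 9 bp upstream of a TSS near the gene start and had a CpG ratio of 0.78. Eif4g3 had a promoter peak of 5.91 and an intronic peak of 4.12, and Eif4h, a cofactor of the helicase, had a peak of 8.06 in its 3′ untranslated exon only.

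The remaining initiation genes with promoter peaks act at subunit joining or start site selection, or carry the unusual amino acid hypusine. Eif6, which keeps the large ribosomal subunit from joining early, had 9.09 (chr2:155826143-155826571) and Eif5b, the GTPase of subunit joining, had 5.13. The hypusine-containing factor is encoded by Eif5a and Eif5a2, with 6.04 and 8.94 (chr3:28781381-28781926). Eif1b had 7.86.

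Promoter peaks at 2 of the 7 elongation factor genes gave a share close to that of all protein-coding genes (28.6% against 24.6%). Eef2, which encodes the translocation factor, had none, while Eef2k, the kinase that inactivates eEF2, had a promoter peak of 7.54 with its midpoint 42 bp downstream of the TSS. The methyltransferase genes Eef2kmt and Eef1akmt3 had 4.12 and 4.25, both among the smaller values. Eef1d, a subunit of the exchange factor of eEF1A, had 2 promoter peaks, of 6.16 and 5.78. Eef1a1, which encodes the factor that delivers charged tRNA, had the smallest promoter peak of the set, at 3.92. It lay in a coding exon 10193 bp from the gene start, within 1 kb of a TSS of another annotated Eef1a1 transcript, and its sequence matched 34 other places on 13 chromosomes at 91.6 to 98.9% identity. These matches spanned 107 to 285 bp of the 764 bp peak. Whether reads from the other places contribute to the peak was not tested.

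Synthetase genes had the largest promoter peak of the set and 5 of the 10 largest. Of the 38 gene and peak pairs, 9 were at cytosolic and 7 at mitochondrial synthetases, so 5 of 10 is near their share of the peaks. Yars2, the mitochondrial tyrosyl-tRNA synthetase, had a −log10 p of 15.14 at chr16:16303034-16303660, which ranked 108 of all 14103 peaks and 55 of the 5824 within 1 kb of a TSS. Rars2 (arginine) had 11.21 at chr4:34614437-34614999 and Mars2 (methionine) had 10.49 at chr1:55237194-55237734. The other mitochondrial enzymes with promoter peaks were Fars2 (6.90), Nars2 (6.21), Hars2 (6.04) and Vars2 (5.07). Of the genes grouped as cytosolic by symbol alone, Eprs, which encodes a fused enzyme for glutamate and proline, had 12.34 at chr1:185362825-185363491. Dars (aspartate) had 10.48 at chr1:128417014-128417580. Kars (lysine) had 8.65, Vars (valine) 8.11, Aars (alanine) 7.34, Hars (histidine) 6.04, Sars (serine) 5.13, Qars (glutamine) 5.0 and Iars (isoleucine) 4.95. Lars, the cytosolic leucine enzyme and an amino acid sensor of the mTOR pathway, had no peak.

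For valine and histidine, both the cytosolic and the mitochondrial gene had a promoter peak. Vars and Vars2 had separate peaks, whereas Hars and Hars2 are arranged head to head and shared 1 peak of 6.04, which was 239 bp upstream of the nearest Hars TSS and 175 bp downstream of the nearest Hars2 TSS. For alanine, aspartate, isoleucine and serine the promoter peak was at the cytosolic gene only, and for arginine, asparagine, methionine and tyrosine at the mitochondrial gene only.

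**Figure D2:**
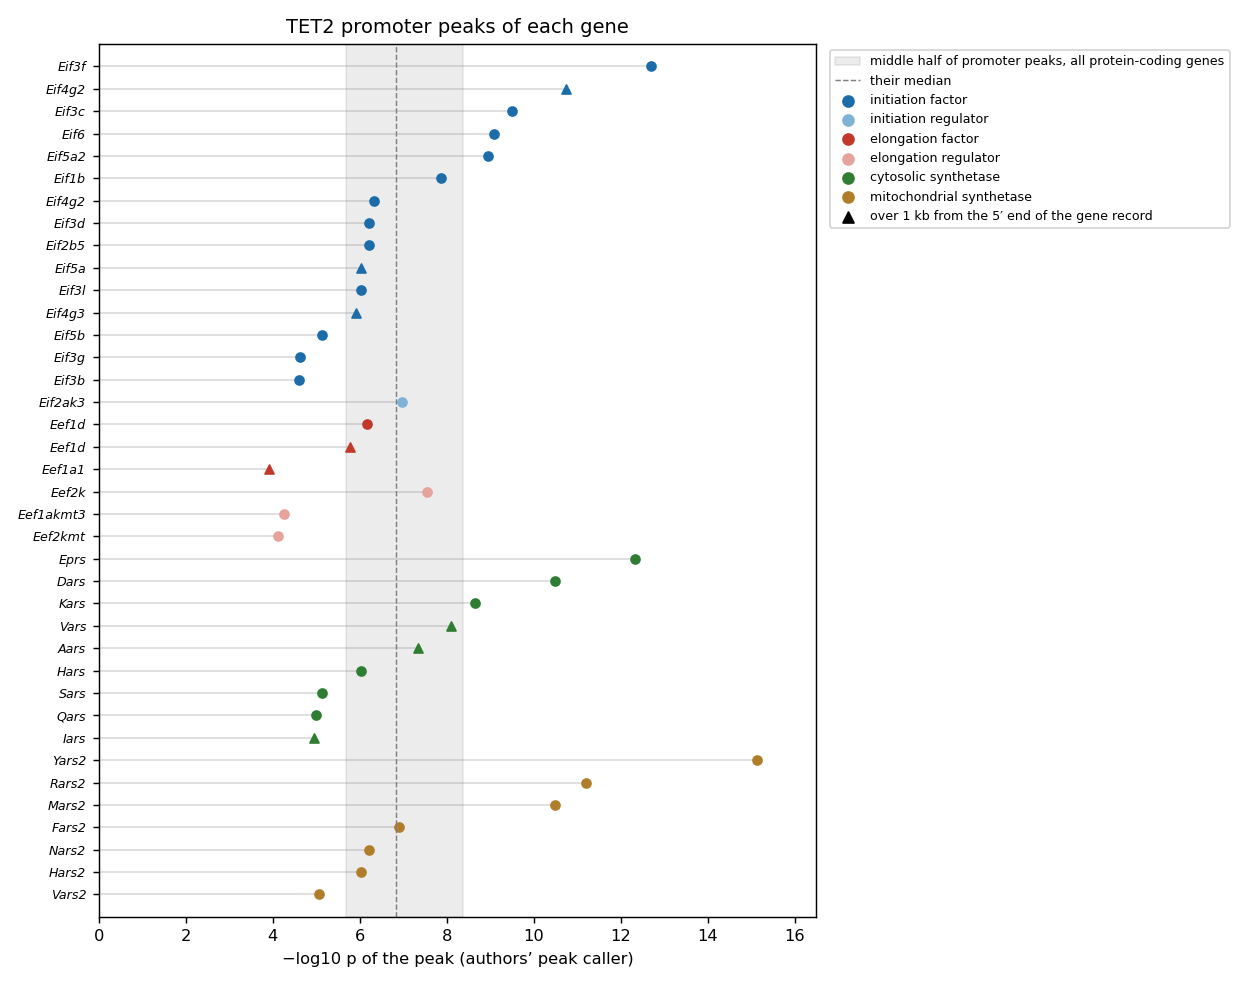
Deposited −log10 p (x axis) of each TET2 promoter peak of the 103 genes, 1 row for each of the 38 gene and peak pairs, coloured by role, with triangles for the 8 peaks over 1 kb from the 5′ end of the gene record. The band from 5.68 to 8.37 is the interquartile range of promoter peaks of all protein-coding genes and the dashed line their median of 6.83, and Yars2 (15.14), Eif3f (12.70) and Eprs (12.34) stand to the right of it.

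As a whole, the 37 distinct promoter peaks of these genes had a median −log10 p of 6.21 (quartiles 5.13 and 8.94), against 6.83 (5.68 and 8.37) for the 5170 promoter peaks of all protein-coding genes. The values therefore spread around the same level as elsewhere, and 31 of the 37 (83.8%) reached 5, against 89.1% of all promoter peaks. Role medians ran from 4.25 for the 3 peaks of elongation regulators to 7.34 for the 9 of cytosolic synthetases.

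Most midpoints lay close to a start site. The median offset from the nearest TSS of the gene was 43.5 bp downstream, against 86.0 bp for all promoter peaks, and 52.6% were within 200 bp, against 56.0%. Relative to the nearest TSS, the direction varied by role, on few peaks each (plot of midpoints relative to the TSS). For initiation factors 14 of 15 midpoints were downstream, whereas for cytosolic synthetases 6 of 9 and for mitochondrial synthetases 4 of 7 were upstream. This depends on the TSS chosen. Of these upstream midpoints, those of Aars, Eprs, Iars, Fars2 and Yars2 lay inside the gene, between 114 bp (Eprs) and 23007 bp (Iars) from the gene start. Midpoints were in an exon in 25 of the 38 gene and peak pairs, in an intron in 5 and upstream of the gene in 8.

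**Figure D3:**
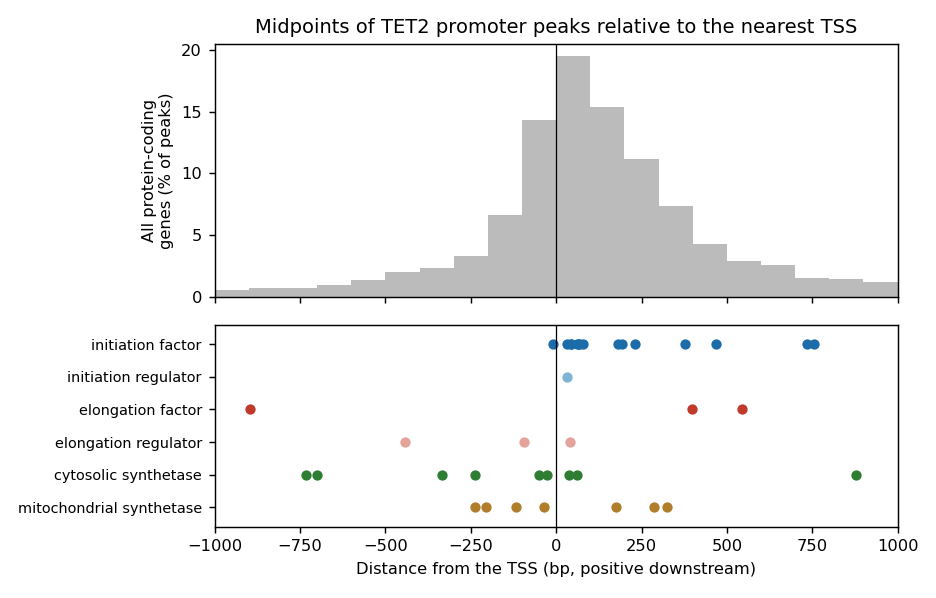
Distance of promoter peak midpoints from the nearest TSS of the gene in bp, positive downstream, as a histogram in percent for all protein-coding genes (upper panel) and as 1 point for each gene and peak pair in each role (lower panel). Of the 38 pairs, 24 were downstream (63.2%, against 67.2% for all genes). Those upstream of the nearest TSS were mostly synthetases, but only 8 of the 38 pairs lay upstream of the gene itself.

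For 8 of the promoter peaks the midpoint was over 1 kb from the 5′ end of the gene record and within 1 kb of another annotated TSS only. They were at Aars, Eef1a1, Eef1d, Eif4g2, Eif4g3, Eif5a, Iars and Vars, between 1226 bp (Eif4g3) and 23007 bp (Iars) inside the gene. Their CpG ratios were 0.25 to 0.64. The one at Iars, of 4.95, lay in an intron with 31.0% of its bases in annotated repeats.

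Several peaks could belong to a neighbouring gene as well. Of the 37 promoter peaks, 15 were also within 1 kb of a TSS of another gene, which was protein-coding for 7. The same share over all promoter peaks was not computed, so these counts do not set the genes apart. Besides Hars and Hars2, these neighbours were Orc3, an origin recognition subunit, beside Rars2, Terf2ip, a telomere protein, beside Kars, Lyrm4, a factor for iron-sulphur cluster assembly, beside Fars2, the tRNA methyltransferase gene Mettl1 beside Eef1akmt3, Txndc9 beside Eif5b and Tigd5 beside Eef1d. In 9 of the 38 pairs the TSS nearest to the midpoint was that of another gene, the pairs of Rars2 and Kars among them. Bound protein at such a site cannot be assigned to either gene from the peak position.

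The promoters of these genes were rich in CpG. From 250 bp before to 50 bp after the gene start, their median CpG ratio was 0.77, against 0.52 for all protein-coding genes, and 82 of the 103 (79.6%) had a ratio of at least 0.6, against 44.4%. Within that class, 28 of the 82 genes (34.1%, 24.0 to 45.4%) had a promoter peak, and the share over all 9741 protein-coding genes of the class was 37.6%, which lay inside the interval. Genes of the set with a promoter peak had a median CpG ratio of 0.78 and those without had 0.77, where the medians over all protein-coding genes were 0.74 with a peak and 0.41 without. The medians stood apart across the annotation and close together within the set (plot of CpG ratios).

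**Figure D4:**
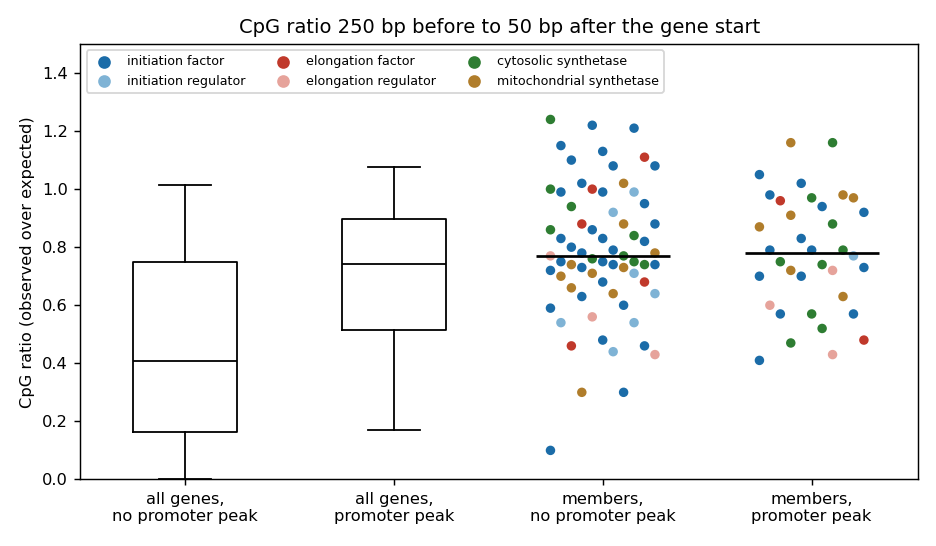
CpG ratio from 250 bp before to 50 bp after the gene start, as box plots for all protein-coding genes (box, quartiles, and whiskers, 5th to 95th percentile) and as 1 point for each translation factor or synthetase gene, coloured by role, with lines at the medians. The medians are 0.41 and 0.74 for all genes without and with a promoter peak, and 0.77 and 0.78 for the genes of the set.

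The other 21 genes had a ratio under 0.6, and 8 of them had a promoter peak (38.1%, 18.1 to 61.6%), against 14.2% of the 12210 protein-coding genes of that class. They were Aars, Eef1a1, Eef1akmt3, Eif1b, Eif2b5, Eif6, Iars and Qars. At Aars, Eef1a1 and Iars the peak was far inside the gene. The peaks at the other 5 had CpG ratios of 0.63 (Qars) to 0.85 (Eif6), above the ratio in the window at the gene start, which was 0.41 for Eif2b5 and 0.43 for Eef1akmt3. Counting only peaks at the 5′ end of the gene record, 5 of the 21 genes had a peak (23.8%, 8.22 to 47.2%), and the 9.05% of all genes in the class lay inside that interval.

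Short motifs were counted in the same promoter window on both strands. The ETS core CCGGAA, bound by factors such as GABPA, was present in 47 of the 103 promoters (45.6%, 35.8 to 55.7%), against 17.5% of all protein-coding promoters and 30.1% of those with a CpG ratio of at least 0.6. It was most frequent in cytosolic synthetases, at 13 of 18 (72.2%, 46.5 to 90.3%), and was found in 9 of 17 mitochondrial synthetase promoters. It was present in 14 of 30 promoters with a peak at the gene start (46.7%) and in 33 of 73 without one (45.2%), so these shares were close. Within 100 bp of the midpoint it was present at 10 of the 37 promoter peaks (27.0%, 13.8 to 44.1%), against 12.1% of all promoter peaks.

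The SP1 box GGGCGG was in 69.9% of the promoters, against 43.0% of all and 72.3% of the CpG-rich ones, and it was in 66.7% of those with a peak at the gene start and 71.2% of those without. For C/EBP, searched as TTGCNNAA, the share was 8.74%, against 10.5% of all promoters, and 1 of the 37 midpoints had a match (2.70%), against 2.55% of all promoter peaks. The E-box CACGTG was in 11.7% (6.17 to 19.5%), the NRF1 site CGCATGCG in 2.91% (0.605 to 8.28%) and the YY1 site ATGGCGGC in 7.77% (3.41 to 14.7%). The shares of all promoters were 7.75%, 2.61% and 2.55%, of which only that of YY1 lay outside the interval. Those of the CpG-rich promoters were 11.6%, 4.66% and 4.96%, all inside the intervals. A match records letters in a window and not binding of the factor.

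The composite site TGATGNAA, bound by ATF4 with a C/EBP partner when amino acids are scarce, was in 5 promoters (4.85%, 1.59 to 11%), against 3.84% of all. In promoters with a CpG ratio of at least 0.6 the share was 1.55%, just below that interval. The 5 promoters were those of Cars, Gars, Iars and Tars, grouped by symbol as cytosolic synthetases, and of Eif4ebp3, none of which had a peak at the gene start. For cytosolic synthetases this was 4 of 18 (22.2%, 6.41 to 47.6%), an interval above both shares. Among the 30 promoters of the set with a peak at the gene start the count was 0 (upper limit 11.6%). That interval includes the 1.72% of all promoters with such a peak, where the share of those without was 4.38%. The count of 0 therefore does not set these genes apart.

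A terminal oligopyrimidine (TOP) start marks mRNAs whose translation depends on mTOR. It was scored as a C followed by 5 pyrimidines, on the sense strand, starting within 5 bases of the TSS of any protein-coding transcript, so genes with more TSSs had more chances to match. A match records letters at an annotated TSS, not a measured mRNA start or a dependence on mTOR, and Eef2 had none. Such a match was found in 28 of the 103 genes (27.2%, 18.9 to 36.8%), against 19.7% of all. Elongation factors had it in 5 of 7 and initiation factors in 18 of 47, but mitochondrial synthetases in 1 of 17 only. Genes with and without a peak at the gene start had it in 30.0% and 26%.

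**Figure D5:**
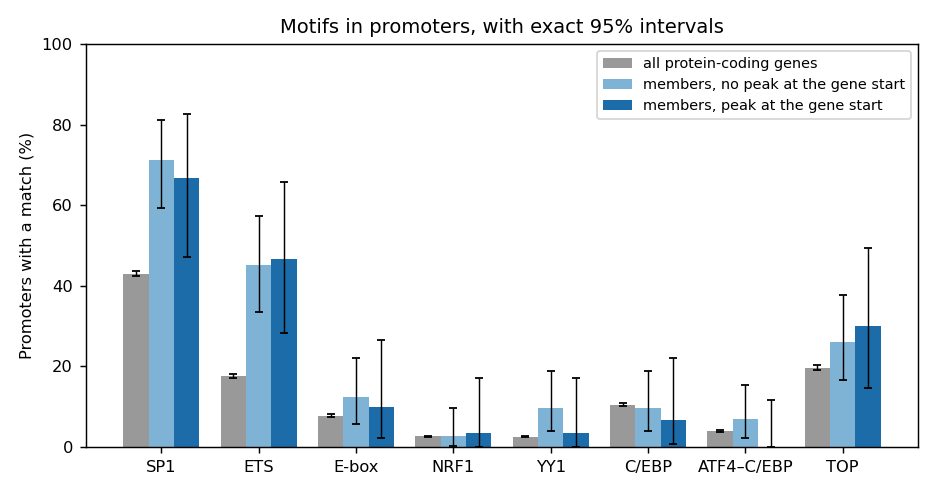
Percent of promoters with each motif, as bars with exact 95% binomial intervals, for all protein-coding genes and for the genes of the set without and with a TET2 peak at the gene start. The ETS bars stand at 17.5%, 45.2% and 46.7%, and the intervals of the genes with and without a peak overlap for each motif.

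Gene body peaks, 14 in 13 of the genes, were equally divided between exons and introns, with 7 each. Besides those named above, they were at Fars2 (9.72 and 5.13), Mars (9.02), Pars2 (8.10), Tars (7.21), Iars2 (6.49), Iars (6.21), Wars2 (5.13) and Aars (4.91). The peak of Aars lay in an untranslated exon within 1 kb of the start of Exosc6, a subunit of the RNA exosome. Those of Pars2, Tars and Eif2ak4 had their midpoints in coding exons. Without the peak of Lars2 the median −log10 p was 6.49, against 6.21 for the gene body peaks of all protein-coding genes. The peak of 5.13 in an intron of Fars2 lay wholly in annotated repeats (100.0%) and matched 2373 other places in the genome, and that of Wars2 matched 532.

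The Lars2 peak stood apart from all others of the set. Lars2 encodes the mitochondrial leucyl-tRNA synthetase, and the peak lay at chr9:123461681-123462365, in its 3′ untranslated exon, 95096 bp from the gene start. Its −log10 p of 115.73 ranked 10 of all 14103 peaks, and the next largest value in the set was the 15.14 of Yars2. Only 2.9% of its bases were in annotated repeats, but it matched 11 other places on 9 chromosomes, over 103 to 244 bp at 90.3 to 98.8% identity, and 0 places in the mitochondrial genome. Of the 51 distinct peaks at these genes, 46 had no match beyond their own position, and those with at least 5 matches were the peaks of Lars2, Eef1a1 and Wars2 and the smaller gene body peak of Fars2. Copies in sequence outside the assembled chromosomes and the mitochondrial genome were not counted. Whether the copies contribute to the value of the Lars2 peak was not tested.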

How the data were processed

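ChIP-seq of TET2 was performed by the authors on adipocytes differentiated in vitro, with 1 TET2 and 1 input library. According to the methods, reads were cleaned with NGS QC Toolkit, aligned with bowtie1 and annotated with ChIPseeker. The submitters' processing notes name bcl2fastq, Bowtie, MACS2 2.1.0 and mm10 (GRCm38), while the methods name GRCm39. GRCm38 was used and no coordinates were converted. The deposited list gives the interval of each peak and its −log10 p value against the input, as computed by the authors' peak caller. The input library was not analysed on its own, and the reporting summary gives the yield as a data volume only, with no reads per library.

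Peaks were placed by their midpoints, starts being read as 1-based, on GENCODE M21 protein-coding genes. Promoter windows reached from 250 bp before to 50 bp after the 5′ end of the gene record, and the CpG ratio was the observed over the expected CpG number. Copies of a peak were blastn 2.17.0 matches of at least 100 bp and 90% identity on the assembled chromosomes and the mitochondrial genome only. Tables, intervals and figures were made with pandas 2.3.3, scipy 1.17.1 and matplotlib 3.10.9 on numpy 2.4.6 and Python 3.11.15, and sequence was read with pysam 0.24.0 and samtools 1.23.1. Peak placement and the motif search were tested on simulated data. No p-value was computed, since there is 1 library, and shares have exact 95% binomial intervals. The gene set and all lists were chosen with earlier results of these data known. Named are every gene of the set with a promoter peak, the 10 largest promoter peaks with coordinates, every gene body peak, 15 genes fixed by name, and a few others named after their values were seen. Alternatives were thresholds of 5 and 7 on −log10 p, other windows, TSS sets, gene assignments and gene rules, removal of high-copy peaks, and other settings for copies and motifs.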

Additional observations from a re-analysis of the deposited data

How the results depend on the processing

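No paired analysis was possible because a single ChIP library was peak-called against its input. Of 109 values recomputed under alternatives, 77 stayed within 1.5 times the reported value, the interval of the reported share or 1 SD, and 32 moved. A change of sign was possible only for the median offset from the TSS, and it did not occur. With peaks of a −log10 p of at least 7 only, 15 genes had a promoter peak (14.6%, 8.39 to 22.9%, against 12% of all protein-coding genes) and 21 any peak, with a median of 9.50. By role these were 6 initiation factors, 0 initiation regulators, 0 elongation factors, 1 elongation regulator, 5 cytosolic and 3 mitochondrial synthetases. At least 5, the setting in the reporting summary, left 1 elongation factor and 1 elongation regulator. With midpoints within 200 bp of a TSS, 20 genes remained (19.4%, 12.3 to 28.4%, against 14.2%), with 0 elongation factors, 4 cytosolic and 3 mitochondrial synthetases. Within 500 bp there was 1 elongation factor, in a share of 30.1% (21.5 to 39.9%, against 21.6%), and within 3 kb 2 initiation regulators, in a share of 39.8% (30.3 to 49.9%, against 28.5%). TSSs of protein-coding transcripts gave a median offset of 68 bp and the gene start alone 132.5 bp, each with 1 elongation factor. Peaks whose nearest TSS was that of the gene itself left 1 elongation factor and 4 mitochondrial synthetases. Counting protein-coding neighbours only, 7 promoter peaks were shared. Matches of at least 200 bp and 95% identity left 2 peaks with 5 or more copies. Around peak midpoints in place of promoters, motif shares were 43.2% (SP1), 27% (ETS), 5.41% (E-box), 2.7% (C/EBP) and 0% (ATF4 composite). The cause of these shifts was not tested beyond the smaller number of peaks or start sites that each setting leaves. The restriction to CpG-rich genes and the count of Hars and Hars2 as 1 were chosen after seeing the data. With 1 library of unknown read number, a gene without a peak is one where no peak was detected.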

Other observations

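The proteins that work beside these factors were counted in the same way from a list of 37 symbols, which match 38 gene records. Promoter peaks were found at 10 of them (26.3%, 13.4 to 43.1%), close to the 24.6% of all protein-coding genes, 6 had gene body peaks only and 22 had none. Of the release factors, Gspt1, the GTPase partner of the release factor Etf1, had a −log10 p of 11.71 and its paralogue Gspt2 had 5.13, while Etf1 had no peak. Among proteins acting at the cap and poly(A) tail, Larp1, which binds TOP mRNAs, had 10.13, Paip1 6.62 and Pdcd4, an inhibitor of the helicase Eif4a1, 6.24, whereas the poly(A)-binding protein gene Pabpc1 had none. The scaffold Aimp2 of the multi-synthetase complex had 8.68 and Farsb, a subunit of the cytosolic phenylalanine enzyme, 7.34, whereas Aimp1, Farsa and Tarsl2 had none. Promoter peaks were at 2 of these 5 genes (40.0%, 5.27 to 85.3%). They were at 2 of 4 release and recycling genes (6.76 to 93.2%) and 3 of 7 cap, poly(A) and reinitiation genes (9.9 to 81.6%). All 3 intervals include the 24.6% of all protein-coding genes.

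Of 10 genes for mitochondrial factors 2 had promoter peaks (20%, 2.52 to 55.6%). Gfm1, an elongation factor, had a promoter peak of 10.33 and Mtrf1l, a release factor, one of 5.32. Tsfm (9.58) and Mtif3 (4.86) had gene body peaks only, and Tufm had none. In the kinase and stress pathway 1 of 11 gene records, that of Mknk1 (6.21), had a promoter peak (9.09%, 0.23 to 41.3%). Both intervals include the 24.6% of all protein-coding genes. Mtor, Rps6kb2 and Mknk2 had gene body peaks only, the largest of 7.16 at Mtor, and Atf4 and Ddit3, the transcription factors of the stress response, had none.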
